A study of Mus musculus with 6 samples.

Results

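Transcripts of 40 cell cycle and proliferation genes were examined in whole mouse liver. The genes were chosen by name, and a row of the deposited tables belonged to the set when its symbol was one of the 40. All 40 were listed in at least 1 of the 6 libraries, among 18253 gene symbols in all. They were read in 3 classes, 9 genes of the G1 phase, 13 genes of S phase and 18 genes of mitosis, a class here including Ccna2, Top2a and Mki67, which are also active before mitosis begins. The mice were C57BL/6, labelled as postnatal day 21, and no transgene or deletion is given for them. One group of 3 libraries came from mice given ANIT (alpha-naphthylisothiocyanate, a bile duct toxicant used to induce cholestasis), and the other group of 3 from mice given ANIT and celastrol, a plant triterpenoid, with treatment for 5 days. Both groups were therefore given ANIT, and the labels give no measure of injury in either. No group of untreated mice was analysed here, so no value can be set against untreated liver. Whether each library came from its own animal is not labelled, and p-values reflect only the variation among these samples, which may be technical.

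A cell enters the cycle when D-type cyclins, made in response to growth factors, switch on the kinases CDK4 and CDK6. These kinases phosphorylate the retinoblastoma proteins and free E2F transcription factors, which turn on the genes of DNA replication. Cyclin E with CDK2 starts S phase, cyclin A carries it on, and cyclin B with CDK1 drives mitosis. Hepatocytes of the adult liver are mostly out of the cycle and can re-enter it after injury or loss of tissue, with cyclin D1 as the best known marker of that entry, while liver growth after birth also involves dividing cells.

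The largest difference in the set was that of Ccnd1, and the G1 genes did not move together as a class. Ccnd1, which encodes cyclin D1, was 14.9-fold lower in mean FPKM in the celastrol group, and Cdk6, which encodes one of its partner kinases, was 2.02-fold lower. Of 7 G1 genes tested, these 2 were called lower (adjusted p under 0.05), beside 20.6% of all tested genes. The groups overlapped for the other 7 of the 9 G1 genes, and the median log2 fold change of the 9 was -0.0007. None of the 13 S phase genes passed the test in either direction. Mitosis genes were at low levels in both groups, 15 of 18 under 1 FPKM in every library, and their means were mostly higher with celastrol, by amounts that rested on few reads.

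RefSeq promoter sequences (build GRCm38.p6, from 250 bases before the annotated start of the gene to 50 bases after it) were available for 31 of the 40 genes, and not for Aurkb, Ccna2, Ccnd1, Ccnd2, Ccne2, Foxm1, Gins2, Mcm4 and Tpx2. Promoters of 4 genes are shown because the classes differ in the short motifs they hold. The motifs searched on both strands were the E2F site (TTTCCCGC, TTTCGCGC, TTTGCCGC or TTTGGCGC), the cell cycle genes homology region or CHR (TTTGAA or TTCGAA), at which the DREAM and MuvB complexes are known to bind, and the CCAAT box (CCAAT), bound by NF-Y. Capitals mark the matches, and no matches overlapped in these 4 promoters. The Cdk6 promoter (chr5:3343643-3343942, plus strand) held no match. This window lay inside the gene as annotated in GENCODE M21, which begins at position 3341485. The Mcm3 promoter (chr1:20820263-20820562, minus strand) held 2 E2F sites and 3 CCAAT boxes. The promoters of Kif11 (chr19:37376132-37376431, plus strand) and Plk1 (chr7:122159185-122159484, plus strand) each held 1 CHR and 1 CCAAT box.
Cdk6: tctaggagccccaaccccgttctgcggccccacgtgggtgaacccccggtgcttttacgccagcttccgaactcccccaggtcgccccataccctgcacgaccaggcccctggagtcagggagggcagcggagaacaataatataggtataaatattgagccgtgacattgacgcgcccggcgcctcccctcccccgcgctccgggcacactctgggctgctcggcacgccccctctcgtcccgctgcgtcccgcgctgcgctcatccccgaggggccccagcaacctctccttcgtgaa
Mcm3: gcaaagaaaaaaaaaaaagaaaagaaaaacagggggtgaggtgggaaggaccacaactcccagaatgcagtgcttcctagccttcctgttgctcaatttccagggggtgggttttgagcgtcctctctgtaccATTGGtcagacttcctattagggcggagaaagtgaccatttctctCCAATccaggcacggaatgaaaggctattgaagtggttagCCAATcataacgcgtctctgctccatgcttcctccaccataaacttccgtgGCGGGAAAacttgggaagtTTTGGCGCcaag
Kif11: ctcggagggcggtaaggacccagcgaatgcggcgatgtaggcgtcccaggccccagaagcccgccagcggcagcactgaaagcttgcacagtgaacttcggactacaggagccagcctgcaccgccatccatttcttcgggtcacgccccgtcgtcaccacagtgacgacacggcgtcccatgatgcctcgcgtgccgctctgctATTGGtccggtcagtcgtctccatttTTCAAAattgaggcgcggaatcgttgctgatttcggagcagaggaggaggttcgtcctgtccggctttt
Plk1: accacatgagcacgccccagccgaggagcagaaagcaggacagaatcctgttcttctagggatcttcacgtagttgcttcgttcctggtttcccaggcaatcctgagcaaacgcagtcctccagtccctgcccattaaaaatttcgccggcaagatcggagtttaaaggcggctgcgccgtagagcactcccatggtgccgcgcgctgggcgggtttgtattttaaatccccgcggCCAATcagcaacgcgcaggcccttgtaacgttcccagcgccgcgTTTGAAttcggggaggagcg

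An E2F site was present in 6 of 11 S phase promoters (54.5%), in 1 of 6 G1 promoters (16.7%) and in 1 of 14 mitosis promoters (7.14%), against 2.6% of all 27025 symbols in the promoter table. A CHR was present in 12 of 14 mitosis promoters (85.7%), in 2 of 11 S phase promoters (18.2%) and in 0 of 6 G1 promoters, against 21.7% of all symbols. A CCAAT box was present in 13 of 14 mitosis promoters (92.9%), 8 of 11 S phase promoters (72.7%) and 2 of 6 G1 promoters (33.3%), against 41.1%. The windows of E2f1, Cdk6, Cdc6 and Mcm7 lay wholly inside the gene as annotated in GENCODE M21, past its outermost start. Sites nearer that start were not searched, so the shares, above all that of the few G1 promoters, may miss sites. A match describes the letters in this window and does not show that a factor was bound there.

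The values were FPKM, fragments scaled to the length of the gene and to the size of the library, so levels of different genes can be compared. The estimated depth was 18940000 to 19840000 reads in the ANIT libraries and 19400000 to 19780000 in the celastrol libraries, at which 1 FPKM over a kilobase of gene is 18.9 to 19.8 reads. Differences were tested on log2(FPKM + 1) with limma across 10593 genes that reached 1 FPKM in at least 3 libraries, and p-values were adjusted by the Benjamini-Hochberg method over all of them. On this scale the change of a gene near or below 1 FPKM is understated. Of the genes tested, 20.6% were called lower in the celastrol group and 4.41% higher (adjusted p under 0.05), and the median log2 fold change was -0.17. Of the 40 genes, 16 passed the filter on low values (7 of G1, 7 of S phase, 2 of mitosis), and the other 24 were read from a fit over all 18253 symbols with no filter, in which 9.18% were called lower and 2.26% higher. Over all symbols, every celastrol library lay below every ANIT library in 24.1%, and above in 7.39%. Celastrol replicate 2 stood apart, with 20.7% of its FPKM sum in its 10 most abundant genes against 33.2% and 31.5% in the other celastrol libraries and 20.3% to 21.9% in the ANIT libraries. Results are given with and without it where it changed them.

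The labelled tissue was checked on markers of liver cell types. All 8 hepatocyte markers were listed in every library, with a summed level of 47150 to 59420 FPKM in the ANIT group and 28470 to 33080 FPKM in the celastrol group. The lower sum was carried by Alb, the gene of serum albumin, at 29350, 29530 and 38660 FPKM under ANIT and 5341, 10050 and 5563 FPKM under celastrol. Without Alb the other 7 markers summed to 17620 to 21400 FPKM under ANIT and 20670 to 27510 FPKM under celastrol. Of those 7, Fgb, the gene of a fibrinogen chain, was called higher (log2 fold change 1.24, limma adjusted p = 0.021). It stood at 5559, 4278 and 3657 FPKM under ANIT and 12200, 6983 and 13340 FPKM under celastrol. The remaining 6 were not called. Of all 8 markers, 2 had a higher mean with celastrol (Fgb and Apoc3), and Serpina1a was lower in every celastrol library (log2 fold change -0.52).

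Ccnd1 lies on chromosome 7 at positions 144929931 to 144939925 (mm10). It stood at 37.1, 20.03 and 26.9 FPKM in ANIT replicates 1, 2 and 3, and at 1.75, 1.98 and 1.93 FPKM in celastrol replicates 1, 2 and 3. The groups were far apart, and the celastrol libraries differed among themselves by less than the ANIT libraries did. The means were 28.0 ± 8.61 FPKM under ANIT and 1.89 ± 0.121 FPKM under celastrol (SD, n = 3 each). The log2 fold change was -3.29 (limma: SE 0.20, adjusted p = 0.000219), the 18th lowest of the 10593 genes tested. Ccnd1 was called in all 14 alternative settings, with adjusted p from 0.000115 to 0.00232. In GENCODE M21, 23.4% of its exon bases are also covered by a gene on the other strand, and the strand setting of the counting is not given in the sources used here. In whole liver, fewer cells of a type and less RNA per cell cannot be told apart.

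**Figure D1:**
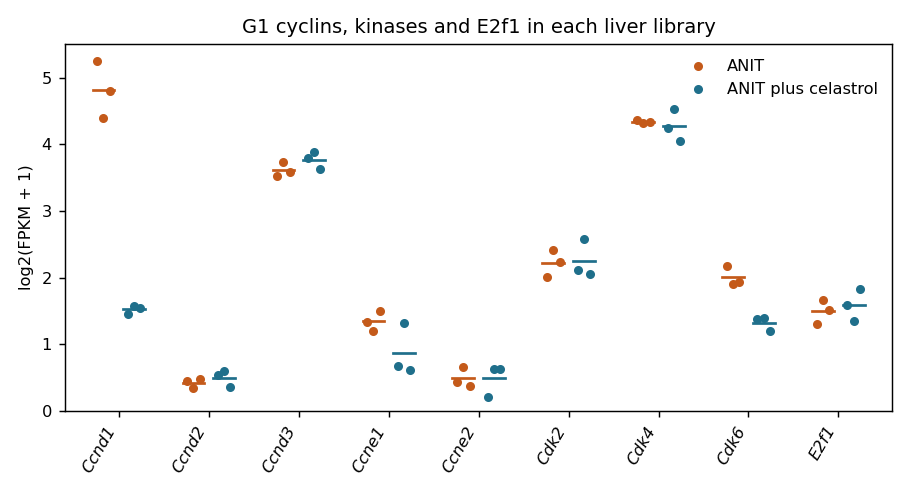
Level of each G1 gene as log2(FPKM + 1), 1 point per library and a line at the group mean (n = 3 per group). The ANIT and celastrol points of Ccnd1 and Cdk6 do not overlap, with Ccnd1 at 20.03 to 37.1 FPKM against 1.75 to 1.98 FPKM, while the points of the other 7 genes overlap.

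The other D cyclins did not pass the test. Ccnd3, the gene of cyclin D3, stood at 10.5, 12.3 and 10.9 FPKM under ANIT and 12.9, 13.8 and 11.4 FPKM under celastrol. Its groups overlapped, with a log2 fold change of 0.16 (limma: SE 0.11, adjusted p = 0.303). It was called higher when libraries were rescaled by median ratios or quantile normalized, which move the median of all tested genes from -0.17 to 0.01. Ccnd2, the gene of cyclin D2, was below 1 FPKM in every library, at 0.36, 0.27 and 0.40 FPKM under ANIT and 0.45, 0.51 and 0.29 FPKM under celastrol.

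The makeup of the D cyclin transcripts was therefore different between the groups. Of the summed D cyclin level, Ccnd1 took 77.4%, 61.5% and 70.3% under ANIT and 11.6%, 12.2% and 14.1% under celastrol. Ccnd3 took 21.9%, 37.7% and 28.7% with ANIT and 85.4%, 84.7% and 83.7% with celastrol. The sum of the 3 genes was 39.6 ± 7.79 FPKM under ANIT and 15.0 ± 1.31 FPKM under celastrol (SD, n = 3 each), and Ccnd3, with means of 11.2 and 12.7 FPKM, was the most abundant D cyclin transcript in the celastrol libraries. No separate test was made of these shares, which follow from the fall of Ccnd1.

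**Figure D2:**
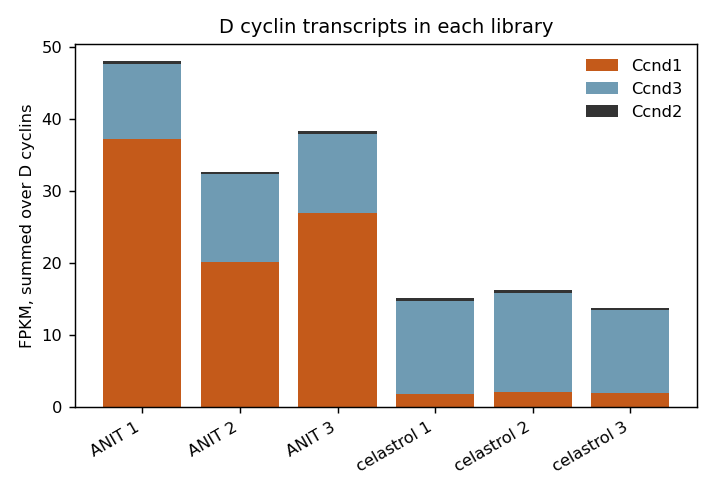
Summed FPKM of the 3 D cyclin genes in each library, stacked by gene. Bars reach 32.6 to 48.0 FPKM in the ANIT libraries, mostly Ccnd1, and 13.7 to 16.3 FPKM in the celastrol libraries, mostly Ccnd3.

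Among the kinases that D cyclins activate, Cdk6 (chromosome 5, positions 3341485 to 3531008, mm10) stood at 3.52, 2.75 and 2.84 FPKM under ANIT and at 1.60, 1.62 and 1.29 FPKM under celastrol. Every celastrol library was below every ANIT library, with a log2 fold change of -0.69 (limma: SE 0.12, adjusted p = 0.00699). Cdk6 was called in all 14 alternative settings of this test, with adjusted p from 0.00312 to 0.0291. Cdk4, the more abundant of the pair, stood at 19.5, 18.9 and 19.3 FPKM under ANIT and 17.9, 22.1 and 15.6 FPKM under celastrol. These values overlapped, with a log2 fold change of -0.07 (limma: SE 0.13, adjusted p = 0.741), and the sign turned under median-ratio and quantile scaling. Cdk6 made up 12.7% to 15.3% of the summed Cdk4 and Cdk6 level with ANIT and 6.84% to 8.21% with celastrol.

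The later G1 genes did not pass the test. Ccne1, the gene of cyclin E1, stood at 1.53, 1.30 and 1.83 FPKM under ANIT and 0.60, 1.49 and 0.53 FPKM under celastrol. Celastrol replicate 2 lay among the ANIT values and the other celastrol libraries below them, with a log2 fold change of -0.48 (limma: SE 0.20, adjusted p = 0.116). Without celastrol replicate 2, Ccne1 was called lower (adjusted p = 0.0103). Ccne2, the gene of cyclin E2, stood at 0.30 to 0.58 FPKM under ANIT and 0.16 to 0.55 FPKM under celastrol. Cdk2, the partner kinase of cyclin E, stood at 3.04 to 4.34 and 3.15 to 4.96 FPKM, and E2f1, an activating E2F, at 1.48 to 2.18 and 1.56 to 2.55 FPKM. In all, 2 of the 7 tested G1 genes were lower and 0 higher in limma (3 and 0 at an unadjusted p under 0.05), set against the 20.6% and 4.41% of all tested genes.

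No S phase gene passed the test. Their summed FPKM was 30.5, 31.6 and 34.9 in ANIT replicates 1, 2 and 3 and 28.4, 37.5 and 30.8 in celastrol replicates 1, 2 and 3. Of the 13 genes, 7 passed the filter, and 0 of these 7 were called in limma in either direction. Of all tested genes, 20.6% were called lower and 4.41% higher. The 6 others were not called in the fit with no filter, in which 9.18% of all symbols were lower and 2.26% higher. An unadjusted p under 0.05 was found for 0 of the 13 in these fits. The median log2 fold change of the 13 was 0.04, and 9 had a higher mean with celastrol, which became 5 without celastrol replicate 2. Of all symbols, 37.0% had a higher mean with celastrol, and 31.3% without celastrol replicate 2. By the sign of the log2 fold change, 12 of the 13 were higher under median-ratio scaling and 6 after rescaling to TPM.

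Pcna, the sliding clamp of DNA polymerases, was the most abundant S phase gene, at 17.7, 16.7 and 18.3 FPKM under ANIT and 12.4, 18.7 and 16.1 FPKM under celastrol. Its log2 fold change was -0.16 (limma: SE 0.15, adjusted p = 0.44), with a sign that turned under median-ratio and quantile scaling. Genes of deoxynucleotide synthesis also overlapped between the groups. Tyms, thymidylate synthase, stood at 1.92 to 2.11 FPKM under ANIT and 1.62 to 2.66 FPKM under celastrol. Rrm1, the large subunit of ribonucleotide reductase, stood at 1.13 to 1.59 and 1.40 to 1.58 FPKM. Rrm2, the small subunit that is made in S phase, stood at 1.33, 1.31 and 1.0 FPKM under ANIT and 0.60, 1.51 and 0.80 FPKM under celastrol. For Rrm2, as for Pcna, celastrol replicate 2 was the highest of the 6 libraries.

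The 6 genes of the MCM helicase, which unwinds DNA at replication forks, summed to 7.45, 8.83 and 10.3 FPKM under ANIT and 10.7, 11.6 and 9.46 FPKM under celastrol. Mcm7 gave 42.4% to 52.6% of that sum in every library. It stood at 3.77, 4.64 and 4.36 FPKM under ANIT and 5.04, 5.65 and 4.84 FPKM under celastrol. Every celastrol library was thus above every ANIT library, but the log2 fold change of 0.23 (SE 0.11) had a limma adjusted p of 0.138, and Mcm7 was called higher under median-ratio and quantile scaling. Its exons share 12.6% of their bases with other genes. Mcm6, Mcm3, Mcm4 and Mcm5 had higher means with celastrol, by log2 fold changes of 0.08, 0.16, 0.22 and 0.24, and Mcm2 a lower one, by -0.06, a sign that turned under median-ratio scaling. The groups overlapped for all 5.

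The loading factors of the helicase and the subunit gene Gins2 were at low levels. Cdt1, which brings the helicase to origins, stood at 0.56, 0.94 and 1.20 FPKM under ANIT and 0.96, 1.05 and 0.70 FPKM under celastrol. Gins2, a subunit of the active helicase, stood at 0.35 to 0.51 and 0.24 to 0.56 FPKM, with 67.3% of its exon bases shared with a gene on the other strand. Cdc6, which loads the helicase with Cdt1, had an estimated 0 to 9 reads per library, so that no difference in it was detectable at this depth.

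**Figure D3:**
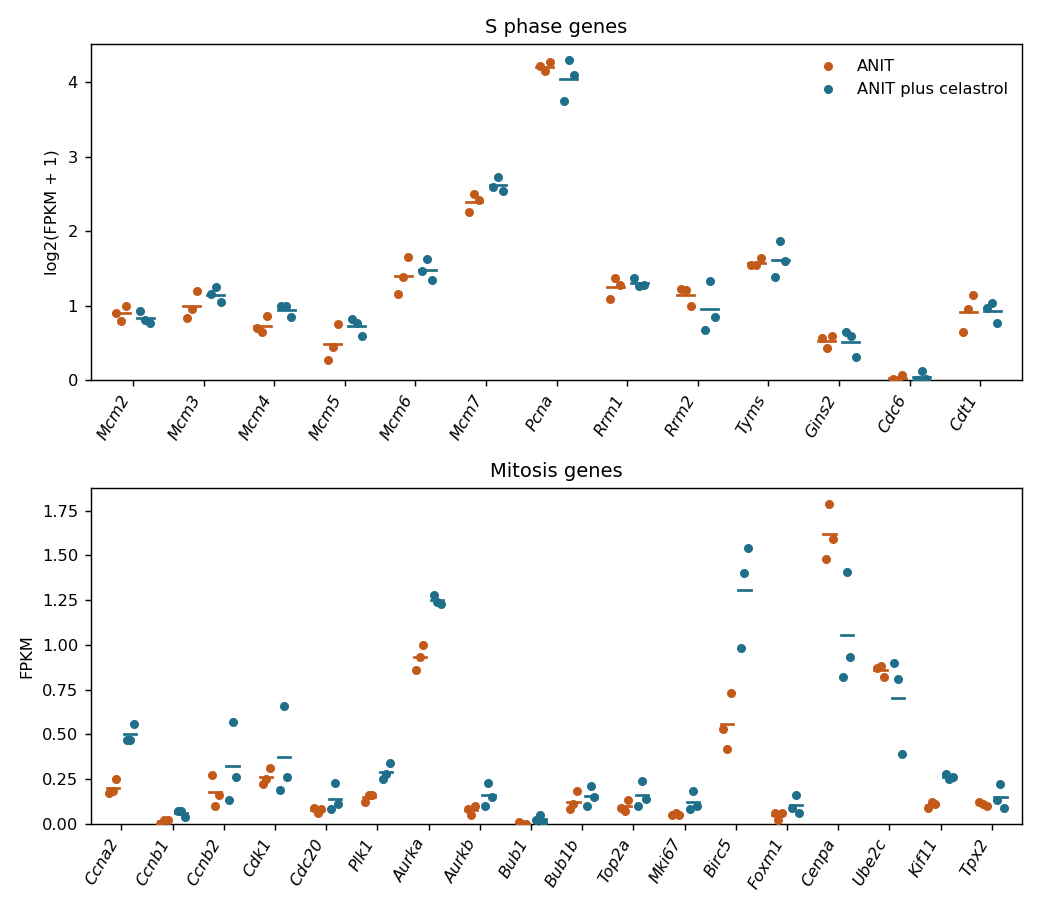
Level of the 13 S phase genes as log2(FPKM + 1) (upper panel) and of the 18 mitosis genes as FPKM (lower panel), 1 point per library and a line at the group mean, ANIT in orange and celastrol in blue (n = 3 per group). S phase points overlap for all but Mcm7, and the mitosis genes lie between 0 and 1.79 FPKM.

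Mitosis genes summed to 5.19, 5.33 and 5.85 FPKM in ANIT replicates 1, 2 and 3 and to 6.07, 8.68 and 6.62 FPKM in celastrol replicates 1, 2 and 3, all 18 genes together. By estimate these sums held 399 to 479 reads per ANIT library and 464 to 682 per celastrol library. Of the 18 genes, 16 had a higher mean with celastrol, and 15 did without celastrol replicate 2. By the sign of the log2 fold change the count was also 16 under median-ratio, TPM and quantile scaling, and 14 without celastrol replicate 2. Among the 4693 symbols of like level (mean from 0.05 to 1 FPKM), 51.5% had a higher mean with celastrol, and 44.4% without celastrol replicate 2. The median log2 fold change of the 18 was 0.08. Every celastrol library lay above every ANIT library for 7 of the 18 (Ccna2, Ccnb1, Plk1, Aurka, Mki67, Birc5 and Kif11), beside 7.39% of all symbols and 8.72% of those of like level.

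Of these genes, 3 were called higher in the fit without a filter. Birc5, the gene of survivin, a subunit of the chromosomal passenger complex, stood at 0.53, 0.42 and 0.73 FPKM under ANIT and 0.98, 1.40 and 1.54 FPKM under celastrol. Its mean was 2.33-fold higher with celastrol, with a log2 fold change of 0.56 (limma: SE 0.13, adjusted p = 0.0403). The call was lost when any 1 library was left out, with the replicate block and under quantile normalization, and adjusted p ran from 0.0346 to 0.139 over 12 alternatives.

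Ccna2, the gene of cyclin A2, stood at 0.17, 0.18 and 0.25 FPKM under ANIT and 0.47, 0.47 and 0.56 FPKM under celastrol, or an estimated 13 to 20 and 37 to 45 reads. Its mean was 2.5-fold higher with celastrol, with a log2 fold change of 0.32 (limma: SE 0.07, adjusted p = 0.033). The call was lost in 7 of 12 alternatives, with adjusted p from 0.0139 to 0.118. Among those 7 were each that left out an ANIT library, celastrol replicate 1 or celastrol replicate 3. Of its exon bases, 12.5% are also covered by a gene on the other strand.

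Kif11, the motor that pushes spindle poles apart, stood at 0.09, 0.12 and 0.11 FPKM under ANIT and 0.28, 0.25 and 0.26 FPKM under celastrol, or an estimated 13 to 17 and 36 to 41 reads. Its mean was 2.47-fold higher with celastrol, with a log2 fold change of 0.19 (limma: SE 0.04, adjusted p = 0.0267). The call was likewise lost in 7 of 12 alternatives, with adjusted p from 0.0132 to 0.0919. These were a pseudocount of 0.1, the replicate block, each that left out an ANIT library, and those without celastrol replicate 1 or 3.

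The other 4 genes with separate groups did not pass the test. Plk1, a kinase of mitotic entry and spindle assembly, stood at 0.12, 0.16 and 0.16 FPKM under ANIT and 0.25, 0.28 and 0.34 FPKM under celastrol (limma adjusted p = 0.0771), and was called under non-robust variance. Aurka, a kinase of the spindle poles, stood at 0.86, 0.93 and 1.0 FPKM under ANIT and 1.28, 1.24 and 1.23 FPKM under celastrol (adjusted p = 0.149 in limma). Mki67, the gene of the proliferation marker Ki-67, stood at 0.05, 0.06 and 0.05 FPKM under ANIT and 0.08, 0.18 and 0.10 FPKM under celastrol (adjusted p = 0.187 in limma), where the highest value is an estimated 35 reads. Ccnb1, the gene of cyclin B1, was listed at 0.02 FPKM at most with ANIT and at 0.04 to 0.07 FPKM under celastrol, an estimated 6 reads at most.

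Cenpa, the centromeric histone, was lower in every celastrol library and did not pass the test. It stood at 1.48, 1.79 and 1.59 FPKM under ANIT and 0.82, 1.41 and 0.93 FPKM under celastrol. Its log2 fold change was -0.36 (limma: SE 0.14, adjusted p = 0.0903), and it was called lower after rescaling to TPM and without celastrol replicate 2. Ube2c, the ubiquitin-conjugating enzyme of the anaphase-promoting complex, had a lower mean with celastrol, at 0.82 to 0.88 FPKM under ANIT and 0.90, 0.81 and 0.39 FPKM under celastrol.

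For the remaining 9 mitosis genes the groups overlapped, and celastrol replicate 2 was the highest library for each of them. Cdk1, the kinase of mitotic entry, stood at 0.22, 0.25 and 0.31 FPKM under ANIT and 0.19, 0.66 and 0.26 FPKM under celastrol. Ccnb2, the gene of cyclin B2, stood at 0.27, 0.10 and 0.16 FPKM under ANIT and 0.13, 0.57 and 0.26 FPKM under celastrol. In both genes that 1 library was the highest of the 6, and without it the log2 fold changes were -0.04 for Cdk1 and 0.02 for Ccnb2. Top2a (DNA topoisomerase), Aurkb (the kinase of the passenger complex), Cdc20 (an activator of the anaphase-promoting complex), Foxm1 (a transcription factor of mitotic genes), Tpx2 (a spindle assembly factor) and the spindle checkpoint kinases Bub1 and Bub1b lay between 0 and 0.24 FPKM in every library. Celastrol replicate 2 alone held the highest value for 10 of the 18 mitosis genes, 7 of the 13 S phase genes and 4 of the 9 G1 genes, against 21.9% of all symbols and 25.6% of those with a mean from 0.05 to 1 FPKM.

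**Figure D4:**
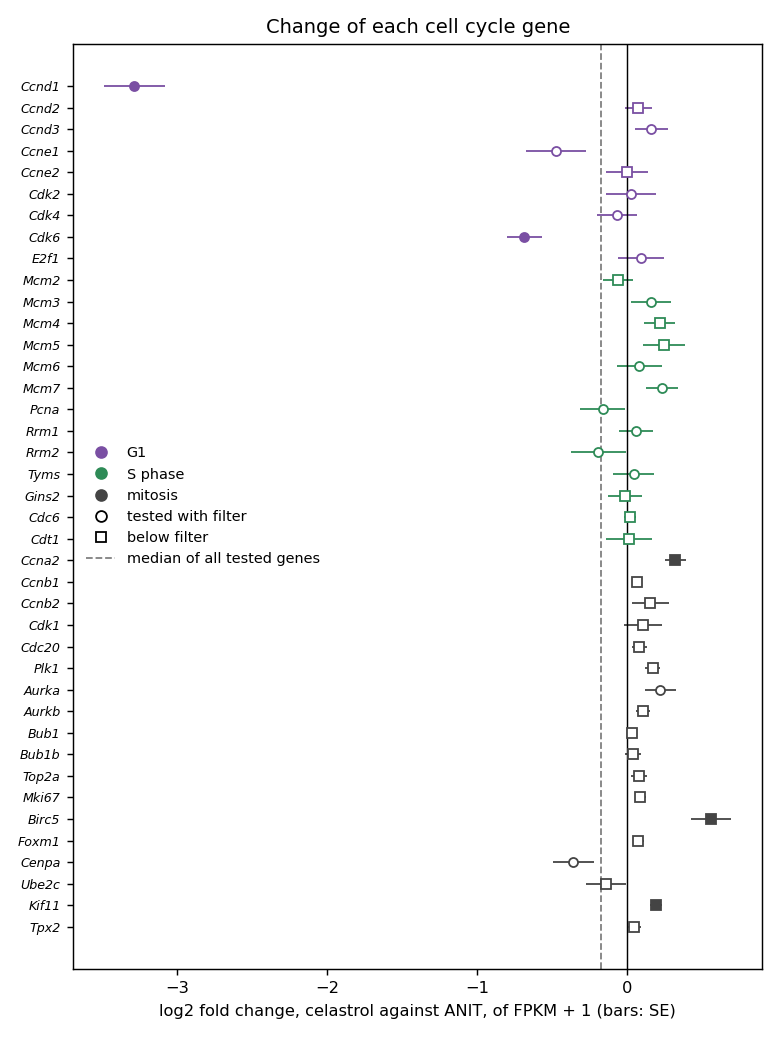
Log2 fold change of each of the 40 genes, celastrol against ANIT, on log2(FPKM + 1), with bars of 1 SE (n = 3 per group), filled where called at an adjusted p under 0.05. Circles were tested with the filter and squares without it. The dashed line is the median of all tested genes, -0.17. Ccnd1 (-3.29) stands far to the left, Cdk6 follows at -0.69, and Birc5 (0.56) is the farthest to the right.

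Dividing blood and immune cells also express these genes, so their markers are given beside the mitosis genes. The 8 neutrophil markers summed to 33.0 to 58.1 FPKM under ANIT and 69.5 to 95.0 FPKM under celastrol. Of the 8, 6 had every celastrol library above every ANIT library, beside 7.39% of all symbols. Camp, of neutrophil precursors, was at 0 in ANIT replicates 1 and 3 and at 0.80 to 1.32 FPKM under celastrol. The 8 lymphocyte markers summed to 0.57 to 1.24 FPKM under ANIT and 0.88 to 2.41 FPKM under celastrol, highest in celastrol replicate 2, and all 8 were below 1 FPKM in every library. Erythroid markers summed to 185 to 341 FPKM under ANIT, most of it globin transcripts. Under celastrol they summed to 63.55, 190.6 and 48.81 FPKM in replicates 1, 2 and 3, so that only replicate 2 reached the ANIT range. Of these 8 markers, 2 had a higher mean with celastrol (Alas2 and Klf1). Hba-a1 and Hbb-bs were lower in every celastrol library (log2 fold changes -1.67 and -1.74) without passing the test, beside 24.1% of all symbols. Klf1, an erythroid transcription factor and the only gene of that list called, was higher, at 1.12 to 1.51 FPKM under ANIT and 2.42 to 2.72 FPKM under celastrol (log2 fold change 0.65, limma adjusted p = 0.00685). Their part in the values of the mitosis genes was not tested. Kupffer cell markers (85.7 to 213 against 151 to 223 FPKM), endothelial markers (27.6 to 48.4 against 39.9 to 71.0 FPKM) and stellate cell markers (18.9 to 35.7 against 15.0 to 52.2 FPKM) overlapped in their sums. Cholangiocyte markers summed to 44.5 to 52.7 against 21.6 to 51.0 FPKM, most of it Spp1, and without Spp1 to 11.8 to 12.9 against 7.93 to 10.8 FPKM. All 8 had a lower mean with celastrol, while 37.0% of all symbols had a higher one. Every celastrol library lay below every ANIT library for 4 of the 8 (Krt19, Krt7, Epcam and Cftr), beside 24.1% of all symbols. Of these, Krt19 was called lower (log2 fold change -0.79, limma adjusted p = 0.0139), and Cftr was at 0 in every celastrol library.

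Inhibitors of the cyclin-dependent kinases were read from a list of 7 genes, of which 4 were tested, 2 were higher and 0 lower in limma, the same counts as at an unadjusted p under 0.05, beside 4.41% higher and 20.6% lower of all tested genes. Both that rose encode INK4 proteins, which bind CDK4 and CDK6. Cdkn2c stood at 2.05, 2.61 and 2.18 FPKM under ANIT and 4.13, 5.14 and 3.84 FPKM under celastrol, a log2 fold change of 0.71 (limma: SE 0.12, adjusted p = 0.00778). Cdkn2d stood at 1.25, 1.07 and 1.27 FPKM under ANIT and 2.37, 3.30 and 2.45 FPKM under celastrol, a log2 fold change of 0.75 (limma: SE 0.13, adjusted p = 0.00678). In both, every celastrol library was above every ANIT library, and both were called in all alternatives.

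Cdkn1a, an inhibitor induced by DNA damage and stress, was the most abundant of the 7. It stood at 92.6, 67.8 and 52.2 FPKM under ANIT and 24.8, 7.42 and 58.6 FPKM under celastrol, so that celastrol replicate 3 lay among the ANIT libraries. Its log2 fold change was -1.58 (limma: SE 0.72, adjusted p = 0.16). Cdkn1b stood at 8.88 to 11.0 FPKM under ANIT and 8.41 to 9.96 FPKM under celastrol. Cdkn1c, of low level in the ANIT group (0.34 to 0.54 FPKM), stood at 1.5, 1.21 and 0.66 FPKM under celastrol, above every ANIT library but without passing the test (adjusted p = 0.0776 in the limma fit without a filter). Cdkn2a and Cdkn2b were at 0.29 FPKM at most in any library.

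Of 22 other genes of the retinoblastoma and E2F pathway, 17 were tested, 3 were lower (E2f3, E2f6 and Cks1b) and 2 higher (E2f8 and Rbl2), beside 20.6% and 4.41% of all tested genes. E2f8, an atypical E2F that represses transcription, stood at 0.15, 0.49 and 0.33 FPKM under ANIT and 4.27, 4.15 and 4.70 FPKM under celastrol. This was a 13.5-fold higher mean, with a log2 fold change of 2.03 (limma: SE 0.13, adjusted p = 0.000202), called in every alternative. Of its exon bases, 11.2% are also covered by a gene on the other strand. E2f7, its close relative, was below the filter at 0.04 to 0.08 FPKM under ANIT and 0.17 to 0.24 FPKM under celastrol, and was called in the fit without it (limma adjusted p = 0.0283) but not when an ANIT library, celastrol replicate 1 or celastrol replicate 3 was left out, under quantile normalization or with the replicate block. E2f3, an activating E2F, stood at 3.37, 3.30 and 2.45 FPKM under ANIT and 1.49, 1.76 and 1.66 FPKM under celastrol. Its log2 fold change was -0.61 (limma: SE 0.12, adjusted p = 0.0126), and adjusted p was 0.0543 without ANIT replicate 2 and 0.0555 without celastrol replicate 1. The E2f6 call was lost without ANIT replicate 2 or 3 and without celastrol replicate 1 or 3 (limma adjusted p up to 0.0869), that of Cks1b without ANIT replicate 1 or 3 and without celastrol replicate 1 or 2 (up to 0.0913), and that of Rbl2 without ANIT replicate 1 or 2 and without celastrol replicate 3 (up to 0.0737). The calls of E2f6 and Cks1b were also lost under median-ratio and quantile scaling, and that of Cks1b with no filter. E2f6, E2f7, Cks1b and Rbl2 were named after their values were seen.

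The wider lists of replication and mitosis genes are read beside the 20.6% called lower and 4.41% called higher of all tested genes. Of 48 other S phase genes, 31 were tested, 2 were lower (Pold2 and Gmnn) and 1 higher (Gins1). Pold2, a subunit of DNA polymerase delta, stood at 7.05, 6.95 and 6.94 FPKM under ANIT and 3.07, 3.71 and 3.88 FPKM under celastrol, a log2 fold change of -0.81 (limma: SE 0.10, adjusted p = 0.00222). Gins1, which belongs to the helicase with Gins2, stood at 1.60, 1.43 and 1.66 FPKM under ANIT and 2.70, 3.40 and 2.19 FPKM under celastrol, a log2 fold change of 0.54 (limma: SE 0.13, adjusted p = 0.0249). The Gins1 call was lost when any 1 ANIT library or celastrol replicate 1 was left out, with adjusted p up to 0.0891. The median log2 fold change of the 31 was -0.01, against -0.17 for all tested genes.

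Of 54 other mitosis genes, 15 were tested, 3 were lower (Wee1, Cks2 and Cdc25a) and 0 higher in limma (4 and 0 at an unadjusted p under 0.05). Wee1, the kinase that holds CDK1 inactive until mitosis, stood at 2.27, 2.25 and 5.31 FPKM under ANIT and 0.21, 0.82 and 0.26 FPKM under celastrol, a log2 fold change of -1.53 (limma: SE 0.29, adjusted p = 0.0124, and 0.0527 without celastrol replicate 1). Cks2, a small protein bound to cyclin-dependent kinases, stood at 18.6, 19.1 and 14.1 FPKM under ANIT and 7.91, 11.6 and 8.91 FPKM under celastrol. Its log2 fold change was -0.80 (limma: SE 0.17, adjusted p = 0.0135), and adjusted p was 0.0553 without ANIT replicate 2 and 0.0557 without celastrol replicate 1. Cdc25a encodes a phosphatase that activates cyclin-dependent kinases, and it and Gmnn (geminin, the inhibitor of Cdt1) were named after their values were seen. The Cdc25a call was lost without ANIT replicate 2 or celastrol replicate 1 (limma adjusted p up to 0.0736). The Gmnn call was lost without any 1 library other than celastrol replicate 2 (up to 0.133), with the replicate block, with no filter and under median-ratio and quantile scaling. The other 39 genes were below the filter, and 0 of them were called in the limma fit without it, with 3 at an unadjusted p under 0.05. All 54 summed to 107.6 to 114.9 FPKM under ANIT and to 90.18 to 106.8 FPKM under celastrol. Of the 54, 32 had a higher mean with celastrol, beside 37.0% of all symbols and 51.5% of those with a mean from 0.05 to 1 FPKM. Their median log2 fold change was 0.02. Every celastrol library lay above every ANIT library for 6 and below for 7, beside 7.39% and 24.1% of all symbols.

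Growth signals act before the cycle begins. Of 16 such genes, 8 were tested, 5 were lower (Myc, Tgfa, Hbegf, Tgfbr1 and Tgfbr2) and 1 higher (Egfr), set against 20.6% and 4.41% of all tested genes. The list mixes growth factors and their receptors with receptors of TGF-beta, so these counts do not give a direction of growth signaling. Myc, a transcription factor of growth, stood at 6.41, 4.81 and 6.44 FPKM under ANIT and 1.07, 1.60 and 1.70 FPKM under celastrol, a log2 fold change of -1.49 (limma: SE 0.15, adjusted p = 0.00111). Tgfa, a ligand of the EGF receptor, stood at 8.98, 12.9 and 11.8 FPKM under ANIT and 3.99, 3.61 and 3.93 FPKM under celastrol, a log2 fold change of -1.32 (limma: SE 0.13, adjusted p = 0.00116). Both genes had separate groups and were called in every alternative. Tgfbr2, a receptor of TGF-beta, had the lowest log2 fold change of the list on log2(FPKM + 1). It stood at 11.3, 6.87 and 10.3 FPKM under ANIT and 2.05, 2.80 and 2.39 FPKM under celastrol, a log2 fold change of -1.60 (limma: SE 0.18, adjusted p = 0.00162). In mean FPKM its fall was 3.93-fold, less than that of Hbegf (6.33-fold) and Myc (4.04-fold). The call of Tgfbr1, another receptor of TGF-beta, was lost under median-ratio and quantile scaling, and when ANIT replicate 2, ANIT replicate 3, celastrol replicate 1 or celastrol replicate 3 was left out (limma adjusted p up to 0.0805).

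The receptor of Tgfa went the other way. Egfr stood at 56.7, 44.8 and 45.2 FPKM under ANIT and 116, 130 and 146 FPKM under celastrol, a log2 fold change of 1.41 (limma: SE 0.15, adjusted p = 0.00137). Hbegf, another ligand of that receptor, stood at 5.57, 2.52 and 2.04 FPKM under ANIT and 0.63, 0.53 and 0.44 FPKM under celastrol (limma adjusted p = 0.012). Btc, also a ligand of it, was below the filter at 0.94 to 1.98 FPKM under ANIT and 0.41 to 0.58 FPKM under celastrol, called in the fit without it (limma adjusted p = 0.0473) but not when any library other than ANIT replicate 1 was left out, under median-ratio or quantile scaling, with non-robust variance or with the replicate block. Areg and Ereg, ligands of the same receptor, were listed at 0.46 FPKM at most in any library, and Areg was not listed in the celastrol libraries. Met, the receptor of hepatocyte growth factor, stood at 9.64 to 11.2 and 8.87 to 13.3 FPKM. Myc and Tgfa have the 2 smallest p of this list and fall under the naming rule, and the other genes of it were picked once their values had been seen. Of the hepatocyte markers, Alb was lower and Fgb higher in the celastrol group, as given above, and their part in the levels of Egfr and the ligands was not tested.

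**Figure D5:**
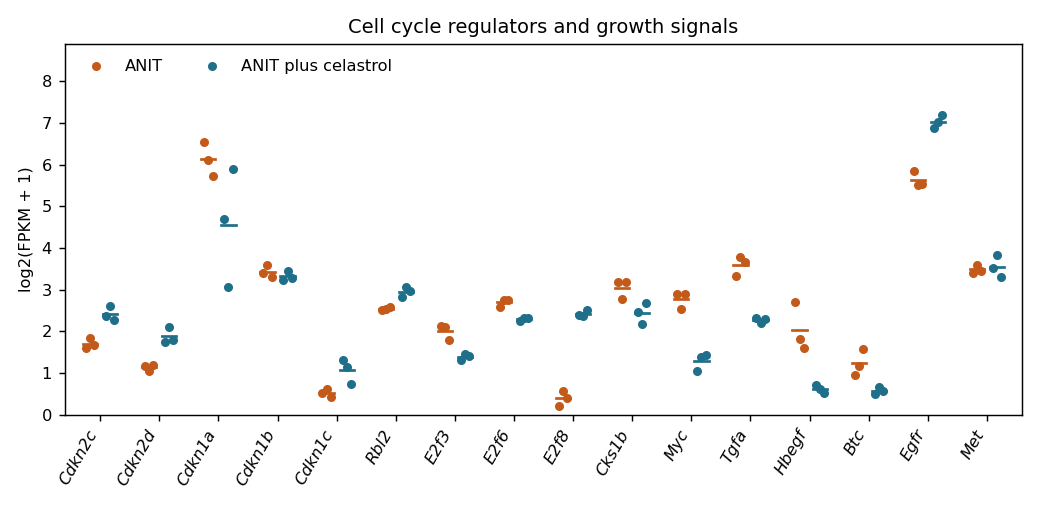
Level of 16 regulators as log2(FPKM + 1), 1 point per library and a line at the group mean (n = 3 per group). Cdkn2c, Cdkn2d, E2f8 and Egfr lie higher in every celastrol library, Myc, Tgfa and Hbegf among others lower, and Cdkn1a spreads from 7.42 to 58.6 FPKM among the celastrol libraries.

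Across the 40 genes, 2 of the 16 tested were lower and 0 higher in limma (4 and 0 at an unadjusted p under 0.05), beside 20.6% and 4.41% of all tested genes, and 3 of the 24 below the filter were higher in the fit without it, beside 2.26% of all symbols. Every celastrol library was above every ANIT library for 8 genes and below for 3 (Ccnd1, Cdk6 and Cenpa), beside 7.39% and 24.1% of all symbols, and the groups overlapped for the other 29. The median log2 fold change of all 40 was 0.07, and -0.04 over all 18253 symbols in the same unfiltered fit. By class it was -0.0007 for G1, 0.04 for S phase and 0.08 for mitosis.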

How the data were processed

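RNA was sequenced from livers of mice given ANIT (3 libraries) or ANIT with celastrol (3 libraries), with groups and replicate numbers as titled. Per the file headers, the authors deposited FPKM by gene symbol, 1 table per library. Reads were processed with HISAT2 and featureCounts on mm10, per the submitters' processing notes. The conversion to FPKM, the annotation with its gene lengths, and the strandedness of counting were not given in the sources used here, which leaves overlapping and near-identical genes uncertain. Symbols absent from a library were given 0, no zero was listed, and the smallest value was 0.01 FPKM. Duplicated symbols (2) were dropped.

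Read totals were estimated from the steps between low FPKM values (0.1 to 1) of genes of 400 to 2500 bases, since the tables give none. The test used limma 3.58.1 (R 4.3.3) on log2(FPKM + 1) for genes that reached 1 FPKM in 3 or more libraries (empirical Bayes trend, robust variance, group as the only term, Benjamini-Hochberg adjusted p under 0.05), and a fit over all symbols gave values for genes below the filter. The fit was tested on simulated data. Group values are FPKM means ± SD. Coordinates and exon bases are from GENCODE M21 (mm10), which matched 17537 symbols.

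The 40 genes, the pathway lists and the marker lists were chosen with earlier results of these data known. The naming rule takes all 40 genes, the 2 genes with the smallest p of each pathway list, and every gene of lists of up to 10. Alternatives were a pseudocount of 0.1, no filter, a filter on the mean, median-ratio scaling, TPM, quantile normalization, non-robust variance, the replicate block and leaving out each library.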

Additional observations from a re-analysis of the deposited data

How the results depend on the processing

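Of the values of the 40 genes under alternatives, 459 kept their side of the threshold, with the same direction or a move within the spread between replicates, 22 lost a call, 8 gained one and 23 that were never called moved by more than the spread between replicates. Ccnd1 and Cdk6 were called in all 14 alternatives of the filtered test, 30 genes in none, and the direction turned under a scaling for 9 genes that were not called. Calls over all tested genes numbered 2652 (467 higher, 2185 lower). They became 4214 after rescaling to TPM (3822 lower), 1941 under median-ratio scaling (910 higher, 1031 lower) and 1825 under quantile normalization (873 higher, 952 lower), which centre the median of all tested genes at 0.01 in place of -0.17. Leaving out 1 library gave 1117 to 3810 calls (196 to 476 higher, 911 to 3334 lower), fewest in all without celastrol replicate 1 and most without celastrol replicate 2. Of the 40 genes, 2 were lower, from 2 to 4 when 1 library was left out, and 0 higher, which became 3 with no filter or median-ratio scaling and 2 with quantile normalization. In the fit without a filter, 3 were higher (5 with median-ratio scaling, 0 with the replicate block, 0 to 2 when 1 library was left out) and 2 lower (1 to 4 when 1 library was left out, 1 without celastrol replicate 1, where Cdk6 was not called). With the replicate block 2585 genes were called. Deviations of same-numbered libraries from their group means correlated at 0.149, 0.231 and -0.0917, of which 0.231 was the highest of all pairs. ANIT replicate 1 correlated better with celastrol replicate 3 (0.18) than with celastrol replicate 1. With 3 libraries per group, these correlations cannot decide whether the replicate numbers pair the samples. The cause of these changes was not tested. Depth limits the mitosis genes, of which 14 of 18 had under 50 estimated reads in every library.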
